A study of Mus musculus with 18 samples.

Results

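The miR-193 and miR-365 family was followed through 18 small RNA libraries of mouse liver by its 4 rows of the deposited table: mmu-miR-193a-3p, mmu-miR-193a-5p, mmu-miR-193b-3p and mmu-miR-365-3p. The rows were chosen by name from 758 listed mature miRNAs, with no threshold on a value. The choice was made with the RPM levels and group differences of these same libraries in view, so every difference and p-value given for the rows describes these libraries and is no independent evidence. All mice were wild type and of the inbred strain C57BL/6J, and the libraries fall into 6 groups of 3. The groups were HF+Ex, HF+CR, HF, LF+Ex, LF+CR and LF, begun at 5 weeks of age and sampled at 62 weeks. The labels do not spell these names out, and they are read here as high-fat (HF) or low-fat (LF) diet, alone, with calorie restriction (CR) or with exercise (Ex). Whether a group's 3 libraries stand for separate or pooled animals is not stated in the labels, so p-values reflect the spread between libraries alone, and that spread may be technical.

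MicroRNAs are short RNAs that guide Argonaute proteins to messenger RNAs, mainly through the seed, the bases after the first at the 5′ end, and lower the output of their targets. Each hairpin precursor can give a miRNA from either arm, named 5p and 3p, and usually one arm is kept at a higher level. In mammals a miR-193 gene lies next to a miR-365 gene at a pair of duplicated loci. In mouse, miR-193b and miR-365 are best known from brown fat, where cell culture work linked them to adipocyte differentiation. miR-193a-3p is known mostly from cancer cells, where it acts against growth.

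The arm sequences decide which products of the loci a sequencing read can tell apart, and they are given from RefSeq for GRCm38.p6, 5′ to 3′, with the seed (bases 2 to 8) in capitals. All 4 rows matched a RefSeq entry by name.
miR-193a-3p: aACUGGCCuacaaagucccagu
miR-193b-3p: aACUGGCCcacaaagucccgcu
miR-193a-5p: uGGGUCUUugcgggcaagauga
miR-365-3p: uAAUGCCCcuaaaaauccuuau
miR-365-2-5p: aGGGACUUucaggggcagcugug
miR-365-1-5p: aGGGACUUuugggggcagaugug

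The seed ACUGGCC was carried by miR-193a-3p and miR-193b-3p and by no other of the 1679 mature mouse names in the RefSeq table, so these 2 form a seed family. They were identical at 19 of 22 positions, and the differences, with the miR-193a-3p base first and positions counted from the 5′ end, were U9C, A20G and G21C. The seeds AAUGCCC of miR-365-3p and GGGUCUU of miR-193a-5p were each found in 1 mature name. miR-365-3p had the same sequence from Mir365-1 and Mir365-2, so its reads cannot be assigned to a locus. The 5p arms of these hairpins do differ, at 3 of 23 positions, which with miR-365-1-5p first were U10C, G11A and A19C.

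Mir193a, drawn here because both of its arms are measured, lies on the plus strand of chromosome 11 at chr11:79711969-79712034 (GRCm38.p6). Its 66-base hairpin is shown with the 5p and then the 3p arm in capitals.
Mir193a: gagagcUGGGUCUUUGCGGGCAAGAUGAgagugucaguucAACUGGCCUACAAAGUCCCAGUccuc

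Mir365-2 follows on the same strand at chr11:79726400-79726511, after a gap of 14365 bases. No other gene of the GENCODE annotation overlapped either hairpin. The second locus is on chromosome 16, plus strand, with Mir193b at chr16:13449523-13449601 and Mir365-1 at chr16:13453840-13453926, separated by 4238 bases. Both hairpins of that locus lie within Gm15738, an antisense gene on the minus strand, outside its exons.

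The libraries held 2.38 to 10.5 megareads on listed miRNAs, read from the steps of the RPM values (reads scaled to the library total), and HF+Ex 1 was the shallowest. miR-122-5p, the main hepatocyte miRNA, made up 20.9% to 30.1% of the listed RPM. Defining miRNAs of hepatocytes were all present, and all 5 passed the filter for testing. LF 1 and HF+CR 3 stood apart with epithelial and biliary miRNAs at 6367 and 8307 RPM, against 1082 to 3919 RPM in the other 16 libraries. LF+CR 1 and HF+CR 1 stood apart with 4 pancreatic miRNAs at 348 and 138 RPM, against at most 41.2 RPM elsewhere, and HF+CR 2 with 3 neuronal ones at 341 RPM, against at most 206 RPM. RPM is a share of a library, so a change in an abundant miRNA moves the rest.

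The most abundant product was miR-365-3p, with a mean of 1244 ± 311 RPM over the 18 libraries (SD), rank 61 of 758. miR-193a-5p followed at 228 ± 33.6 RPM and miR-193a-3p at 148 ± 50.7 RPM, ranks 114 and 133. miR-193b-3p averaged 15.3 ± 5.90 RPM, rank 248. The order miR-365-3p above miR-193a-5p above miR-193a-3p above miR-193b-3p was far apart at its top and bottom, whereas the arms of Mir193a were neighbours whose ranges over libraries overlapped.

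Within the seed family, miR-193a-3p supplied 77.1% to 96.4% of the summed RPM of miR-193a-3p and miR-193b-3p, with a median of 90.8%. The lowest share was in LF 1 and the highest in HF+CR 2. The reads behind a value numbered 245 to 2035 for miR-193a-3p, 559 to 2538 for miR-193a-5p and 2526 to 15183 for miR-365-3p. For miR-193b-3p they numbered 30 to 226. The exact 95% binomial interval of its value in HF+Ex 1, 12.2 RPM from 30 reads, ran over 8.23 to 17.4 RPM. Such intervals cover counting error only, because these reads carry no molecular identifiers.

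The remaining arms of the 4 hairpins were far lower than their partners. miR-365-2-5p, from the chromosome 11 locus, averaged 5.34 ± 2.003 RPM. miR-365-1-5p, from the chromosome 16 locus, was listed at 0 in 14 of 18 libraries and reached 0.456 RPM at most. miR-193b-5p was listed at 0 in 5 of 18 libraries and reached 1.01 RPM. A listed 0 can stand for 0 reads or 1 read, since the smallest listed value was 2 reads. The miR-365 5p arm was thus recorded almost wholly with the chromosome 11 sequence, although this does not assign the 3p reads.

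**Figure D1:**
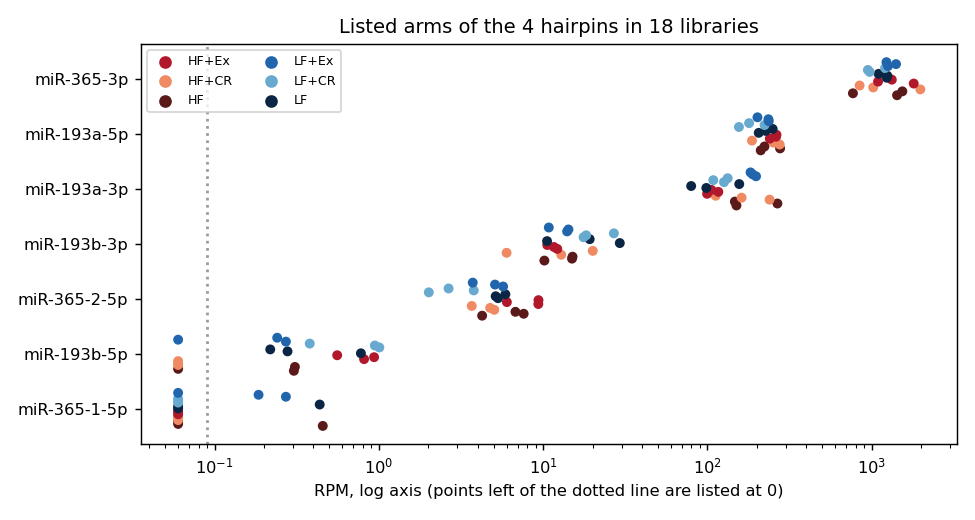
RPM of the 7 arms (log axis) in each of the 18 libraries, coloured by group; points left of the dotted line are values listed at 0. miR-365-3p lies at 769 to 1978 RPM, the arms of Mir193a at 79.7 to 277 RPM, miR-193b-3p at 5.99 to 29.3 RPM, and miR-365-1-5p is listed at 0 in 14 of 18 libraries.

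miR-193a-3p, the 3p arm of the chromosome 11 hairpin, had larger fold changes under exercise than under calorie restriction, each against the diet alone. For both interventions the values had opposite signs on the diets. Restriction gave -0.15 on the log2 scale for HF+CR against HF (limma adjusted p = 0.901) and 0.19 for LF+CR against LF (limma adjusted p = 0.701). Both interventions share the HF and LF libraries as their baseline, and exercise was not tested against restriction. On the high-fat diet miR-193a-3p levels were 99.6, 117 and 106 RPM in HF+Ex, against 150, 267 and 147 RPM in HF. On the low-fat diet they were 198, 188 and 183 RPM in LF+Ex, against 98.5, 79.7 and 156 RPM in LF. Every HF+Ex library lay below every HF library, and every LF+Ex library lay above every LF library. Over all 351 miRNAs tested, 8.26% had HF+Ex wholly below HF and 6.27% had LF+Ex wholly above LF.

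The log2 fold change of miR-193a-3p was -0.75 for HF+Ex against HF (SE 0.29, limma adjusted p = 0.410) and 0.82 for LF+Ex against LF (SE 0.29, limma adjusted p = 0.237). Neither passed the threshold of an adjusted p under 0.05 over the 351 miRNAs. The test of the difference between these effects (HF minus LF) gave -1.57 on the log2 scale (SE 0.41, 95% interval -2.43 to -0.70), and ranked 6 of 351 by p in limma's fit. Its adjusted p of 0.0883 missed the threshold, and it crossed it in 3 of 24 alternatives, with values of 0.0490 after rescaling to size factors, 0.0476 with only the compared groups in the fit and 0.0395 without LF 3. Without HF 2, the library with the highest miR-193a-3p of all, the HF+Ex against HF value was -0.47. In bulk tissue, fewer cells that hold a miRNA and less of it per cell cannot be told apart.

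The other groups were wider or lay between these. miR-193a-3p was at 239, 161 and 112 RPM in HF+CR and at 126, 109 and 133 RPM in LF+CR. The HF+CR libraries spanned much of the range of the whole series, and LF+CR lay inside the LF range of 79.7 to 156 RPM. By group mean the order was LF+Ex 190 ± 7.40, HF 188 ± 68.2, HF+CR 171 ± 63.9, LF+CR 122.5 ± 12.5, LF 111 ± 39.9 and HF+Ex 107 ± 8.58 RPM (SD, n = 3 each). No neighbours in that order differed beyond their spread.

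The diets were also compared within each regimen, and no difference passed. HF+Ex against LF+Ex gave -0.82 for miR-193a-3p (SE 0.29, limma adjusted p = 0.0746), with all 3 HF+Ex libraries below all 3 LF+Ex libraries, as for 9.4% of the 351 miRNAs. HF against LF gave 0.75 (limma adjusted p = 0.331), or 0.47 without HF 2, and HF+CR against LF+CR gave 0.41 (adjusted p = 0.305). That last value was 0.14 without HF+CR 1, 0.68 without HF+CR 3 and 0.09 with rescaling. The HF+Ex and LF+Ex libraries enter both the exercise and the diet comparisons, so these values are not separate evidence. Marker miRNAs of other cells also parted the exercised groups, in a comparison where 32.5% of the 351 miRNAs had HF+Ex wholly above LF+Ex. Of all miRNAs 5.98% were called higher and 2.28% lower there, and their median was 0.22 on the log2 scale. The 6 leukocyte and Kupffer miRNAs summed to 5087 to 7089 RPM in HF+Ex, against 3002 to 4082 RPM in LF+Ex, with miR-155-5p and miR-223-3p higher by 2.17 and 1.79 on the log2 scale (limma adjusted p = 0.0264 and 0.0411). The 2 endothelial miRNAs summed to 19096 to 20813 RPM in HF+Ex, against 15894 to 17683 RPM in LF+Ex, and the 3 neuronal ones to 136 to 145 RPM, against 88.1 to 109 RPM. The neuronal markers did not move together. miR-128-3p was higher by 0.59 on the log2 scale (limma adjusted p = 0.0458), while 2 of the 3 lay below 0, with a list median of -0.12. The hepatocyte-enriched miR-148a-3p was lower by 1.41 (limma adjusted p = 0.00141), the same direction as miR-193a-3p. It was the only 1 of the 5 hepatocyte miRNAs called, and 3 of the 5 lay below 0, with a list median of -0.17. No marker of these lists was at 0 in either group, and their part in the miR-193a-3p difference was not tested.

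**Figure D2:**
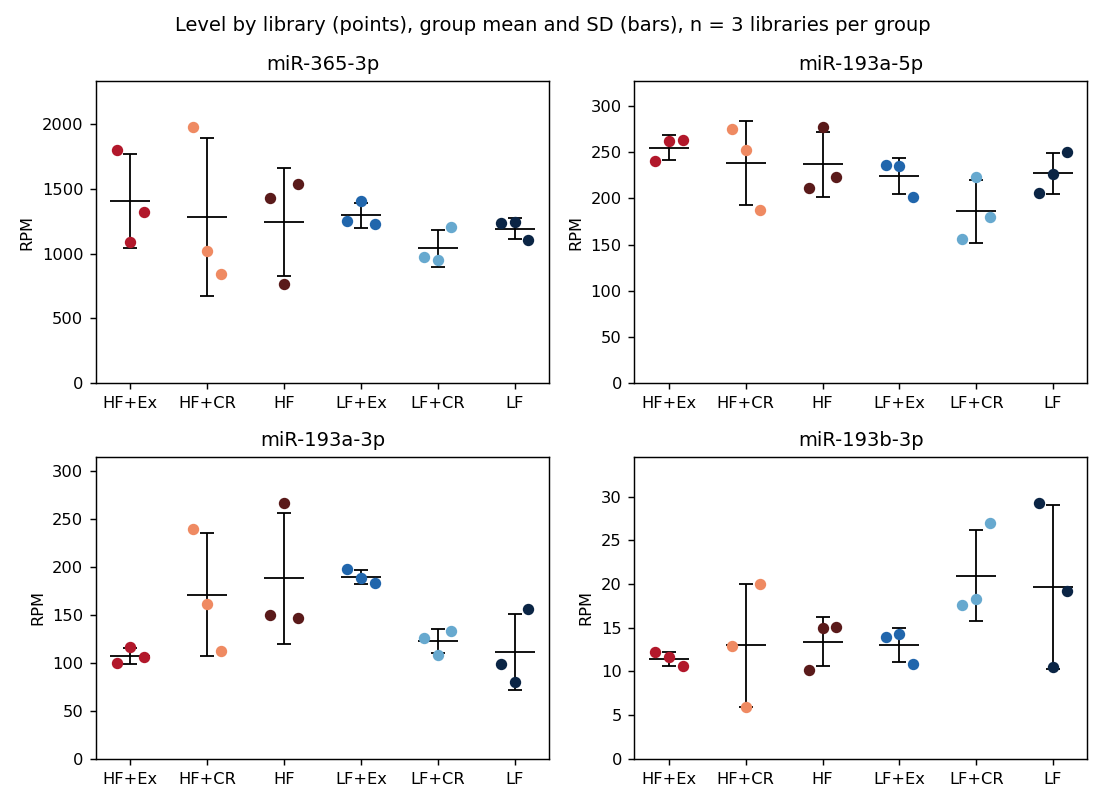
RPM by library (points) for the 4 rows, with group mean and SD as bars, n = 3 libraries per group, each panel starting at 0. For miR-193a-3p the HF+Ex points (99.6 to 117 RPM) lie below the HF points (147 to 267 RPM), and the LF+Ex points (183 to 198 RPM) lie above the LF points (79.7 to 156 RPM).

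miR-193a-5p, the other arm of the same hairpin, did not show this pattern. It was at 240, 262 and 263 RPM in HF+Ex and at 211, 277 and 223 RPM in HF. It was at 236, 235 and 202 RPM in LF+Ex and at 205, 226 and 250 RPM in LF. In each pair of groups the libraries overlapped. All 3 HF+Ex libraries lay above all 3 LF+Ex libraries, as for 32.5% of all tested miRNAs. Within groups miR-193a-5p had the smallest spread of the 4 rows, with an SD of 0.20 on the log2 scale against 0.37 for miR-193a-3p, 0.39 for miR-365-3p and 0.48 for miR-193b-3p.

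For miR-193a-5p the log2 fold change was 0.11 for HF+Ex against HF and -0.02 for LF+Ex against LF. The difference between these effects was 0.13 (95% interval -0.42 to 0.68, limma adjusted p = 0.851). A p that misses the threshold does not show equal effects, and the interval spans both signs. The sign on the low-fat diet turned with rescaling (0.16) and without LF 3 (0.05) or LF+Ex 3 (0.06).

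miR-193a-5p was at 156, 223 and 179 RPM in LF+CR, the lowest of the 6 group means, whereas HF+CR had a mean of 238 RPM. The LF+CR libraries at 156 and 179 RPM lay below every LF library, and the other lay within the LF range. The log2 fold change of LF+CR against LF was -0.30 (SE 0.18, limma adjusted p = 0.306), and 0.04 with rescaling. Before rescaling the median of all tested miRNAs in that comparison was -0.32, so this arm lay near the middle of the table. HF+CR, at 275, 252 and 187 RPM, against LF+CR gave 0.35 (limma adjusted p = 0.195), beside a median of 0.38 over all tested miRNAs. It was 0.02 with rescaling, 0.23 without LF+CR 1, which holds the lowest miR-193a-5p of all, and 0.12 without LF+CR 1 and HF+CR 1, the libraries high in pancreatic miRNAs.

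The ratio of the arms, miR-193a-3p over miR-193a-5p in RPM, compares products of 1 hairpin within a library and does not depend on the scaling between libraries. It was 0.415, 0.446 and 0.402 in HF+Ex, against 0.712, 0.963 and 0.660 in HF. It was 0.837, 0.802 and 0.908 in LF+Ex, against 0.480, 0.352 and 0.626 in LF. All HF+Ex ratios lay below all HF ratios and all LF+Ex ratios above all LF ratios, with the 5p arm ahead everywhere. The ratio was 0.601 to 0.868 in HF+CR and 0.487 to 0.811 in LF+CR, and it stayed below 1 in all 18 libraries. It holds the miR-193a-3p values already described and was not tested. Arm ratios were not taken over the hairpins of all tested miRNAs, so how often groups part in this way is not known.

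**Figure D3:**
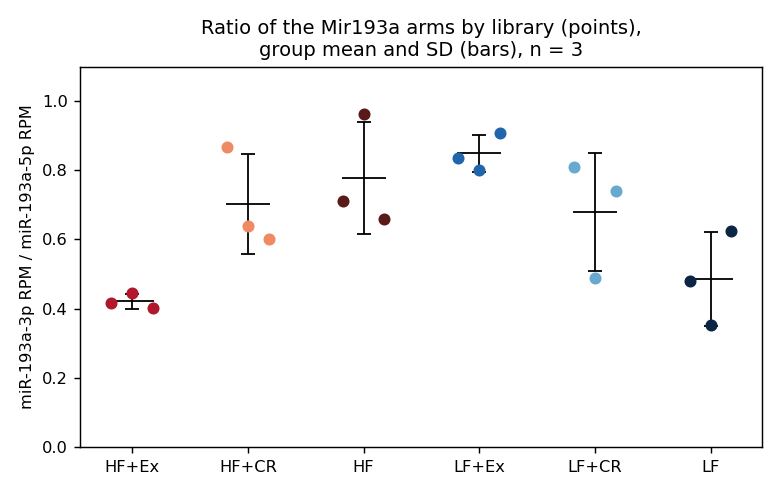
Ratio of miR-193a-3p RPM to miR-193a-5p RPM by library (points), with group mean and SD as bars, n = 3 libraries per group. The HF+Ex ratios lie at 0.402 to 0.446, below the HF ratios of 0.660 to 0.963, and the LF+Ex ratios lie at 0.802 to 0.908, above the LF ratios of 0.352 to 0.626.

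miR-193b-3p, the seed relative from chromosome 16, had lower group means on the high-fat diet in each regimen, but none of these differences passed the test. It was at 12.9, 5.99 and 20.1 RPM in HF+CR, against 17.6, 18.3 and 26.9 RPM in LF+CR. HF+CR 3 lay inside the LF+CR range and the other HF+CR libraries lay below it. HF+CR against LF+CR gave a log2 fold change of -0.76 (SE 0.37, limma adjusted p = 0.168). The size rests on single libraries: it was -0.33 without HF+CR 2, the library high in neuronal miRNAs, and -1.13 without HF+CR 3.

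In the groups without restriction miR-193b-3p was at 12.2, 11.6 and 10.6 RPM in HF+Ex and at 13.996, 14.3 and 10.8 RPM in LF+Ex. It was at 10.2, 14.99 and 15.1 RPM in HF and at 29.3, 10.6 and 19.2 RPM in LF. The LF libraries spanned 10.6 to 29.3 RPM, and each of these pairs of groups overlapped. Averaged over the 3 regimens, high-fat against low-fat gave -0.45 (SE 0.21, limma adjusted p = 0.127). With rescaling that average was -0.64 (adjusted p = 0.0214) and HF+CR against LF+CR was -1.08 (adjusted p = 0.0366), while rescaling shifted the median of all miRNAs by -0.19 and -0.32 in these comparisons.

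The highest miR-193b-3p of the LF group was in LF 1 and that of the HF+CR group in HF+CR 3. These are the libraries with summed epithelial and biliary miRNAs of 6367 and 8307 RPM, from 7 of 7 listed markers. Below the top the orders differed in HF+CR: HF+CR 2 had the lowest miR-193b-3p, 5.99 RPM, with a sum of 1546 RPM. HF+CR 1 had 12.9 RPM with a sum of 1386 RPM. In HF the highest library was again the same in both, HF 3, at 15.1 RPM and a sum of 1712 RPM. HF 2 was close behind it, at 14.99 RPM and a sum of 1590 RPM. In LF+CR, LF+Ex and HF+Ex the highest libraries differed. LF+CR 3, with the highest miR-193b-3p of LF+CR, had its lowest epithelial sum, 1851 RPM. In LF+Ex the highest miR-193b-3p went with 1136 RPM in LF+Ex 2, against 3919 RPM in LF+Ex 1. In HF+Ex it went with 1266 RPM in HF+Ex 1, against 1402 RPM in HF+Ex 2. Without HF+CR 3 alone the HF+CR against LF+CR value of miR-193b-3p was -1.13 (limma adjusted p = 0.0708), which missed the threshold. Leaving out LF 1 as well, which is in neither of these groups, kept the value at -1.13 (limma adjusted p = 0.0402). That set of libraries was chosen after seeing the data. The part of epithelial RNA in the miR-193b-3p levels was not tested.

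miR-365-3p, the shared product of both loci, varied more inside the high-fat groups than inside the low-fat groups. Its coefficients of variation were 25.7% in HF+Ex, 47.6% in HF+CR and 33.4% in HF. They were 7.34% in LF+Ex, 13.7% in LF+CR and 6.72% in LF. This difference in spread was not tested, and how many of all tested miRNAs share it was not counted. The 3 shallowest libraries, HF+CR 1, HF+CR 3 and HF+Ex 1, are all in high-fat groups. miR-365-3p was at 1802, 1093 and 1326 RPM in HF+Ex, 1978, 1022 and 844 RPM in HF+CR, and 1427, 769 and 1537 RPM in HF. It was at 1256, 1406 and 1230 RPM in LF+Ex, 972, 948 and 1206 RPM in LF+CR, and 1236, 1246 and 1102 RPM in LF. All 3 high-fat groups reached above every low-fat library and, other than HF+Ex, below every one as well. The highest level was in HF+CR 1, a library high in pancreatic miRNAs. Over the 12 comparisons its log2 values lay between -0.20 and 0.21, with limma adjusted p of 0.646 to 0.997. The 95% intervals of fold changes reached -0.84 at their lowest, in LF+CR against LF, and 0.84 at their highest, in HF+Ex against HF. Those of the effect differences between diets reached -0.80 and 1.104. Values of each kind up to those sizes are not excluded by these intervals.

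Among the 5p arms of miR-365 the chromosome 11 product miR-365-2-5p passed the filter on low values. It was at 9.35, 6.02 and 9.37 RPM in HF+Ex, 5.04, 4.76 and 3.68 RPM in HF+CR, and 4.25, 7.61 and 6.78 RPM in HF. It was at 5.71, 5.09 and 3.73 RPM in LF+Ex, 2.01, 3.78 and 2.66 RPM in LF+CR, and 5.31, 5.14 and 5.89 RPM in LF. Every HF+Ex library lay above every LF+Ex library, and every LF+CR library lay below every LF library, as held for 32.5% and 24.8% of all tested miRNAs.

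For miR-365-2-5p, LF+CR against LF gave -0.78 (SE 0.27, limma adjusted p = 0.0889) and HF+Ex against LF+Ex gave 0.65 (SE 0.27, adjusted p = 0.120). Averaged over regimens, high-fat against low-fat gave 0.44 (adjusted p = 0.0607), and calorie restriction averaged over both diets gave -0.58 (adjusted p = 0.0688). These averages crossed the threshold in 4 of 28 and 2 of 23 alternatives, with the lowest adjusted p at 0.0381 and 0.0432. The values rest on 11 to 84 reads per library, and with a pseudocount of 5 RPM they were -0.42, 0.42, 0.27 and -0.33 in the order given. LF+CR 1, high in pancreatic miRNAs, held the lowest miR-365-2-5p.

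Across all 12 comparisons of the groups, 0 of 4 rows were called in any, out of 48 results in limma's fit. The 5 results with an unadjusted p under 0.05 were all of miR-193a-3p, in HF against LF, HF+Ex against LF+Ex, HF+Ex against HF, LF+Ex against LF and the difference of the exercise effects. At that looser threshold stood 11.7%, 29.1%, 8.55%, 11.7% and 16.5% of all 351 miRNAs in the same 5 comparisons. Weights from limma's voom on the implied reads also called 0 of 48, with 7 at an unadjusted p under 0.05. The share of all 351 miRNAs called was 0.285% for HF against LF, 10.5% for HF+CR against LF+CR, 8.26% for HF+Ex against LF+Ex and 18.5% for the diet average. It was 0% for HF+CR against HF, 6.27% for LF+CR against LF and 6.55% for the CR average. It was 0.855% for HF+Ex against HF, 0% for LF+Ex against LF, 0% for the Ex average, and 0.855% for each of the CR and Ex effect differences between diets. In the comparisons with no call over all miRNAs, 53 had an unadjusted p under 0.05 in HF+CR against HF, 41 in LF+Ex against LF and 12 in the Ex average, and voom called 0, 1 and 0. With 4 rows, a count of 0 does not set them apart from such shares.

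**Figure D4:**
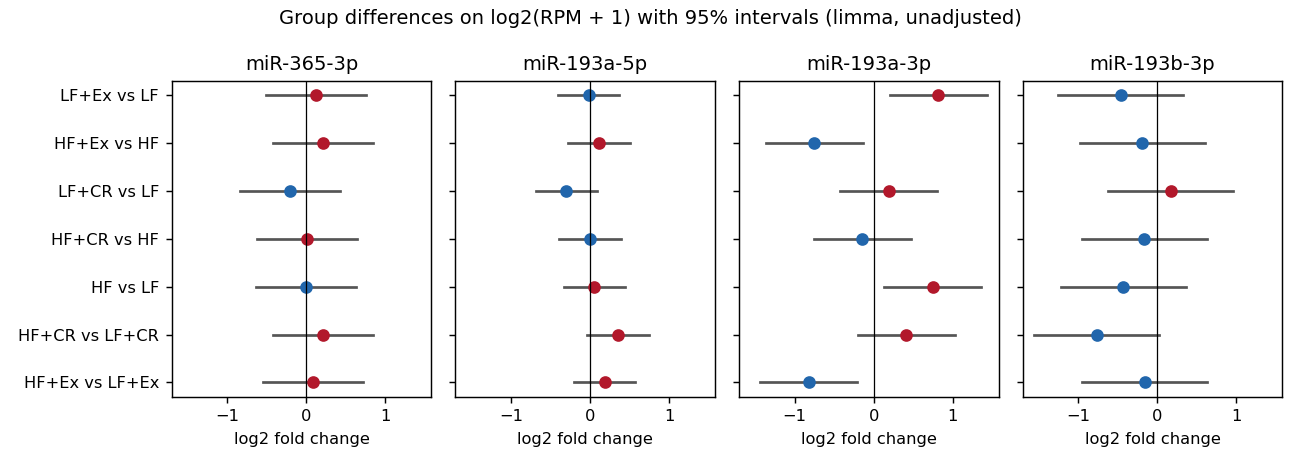
Log2 fold changes of the 4 rows (points, red above 0 and blue below) with unadjusted 95% intervals from limma for 7 comparisons of 3 libraries against 3. The miR-193a-3p intervals for LF+Ex against LF and HF+Ex against HF lie on opposite sides of 0, and the miR-365-3p and miR-193a-5p intervals all span 0.

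Products of neighbouring hairpins were then compared across libraries. For the 6 pairs of rows, correlations of log2(RPM + 1) over 18 libraries were tested by permutation, two-sided, with adjustment over the pairs, and none passed. The arms of Mir193a gave Pearson's r of 0.34 (permutation p = 0.165, adjusted p = 0.496) and Spearman's rho of 0.31 (permutation p = 0.201, adjusted p = 0.401). Without HF 2 and LF 2, the libraries farthest from the median of miR-193a-3p, r was 0.26. With each value centred on its group mean and labels permuted within groups, r was 0.63 (permutation p = 0.0432, adjusted p = 0.259) and rho 0.54 (permutation p = 0.0746, adjusted p = 0.448). It was 0.46 without HF 2 and HF+CR 1. The centred r of the other 5 pairs lay between -0.23 and 0.08, with adjusted p of 0.991 for each.

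miR-193a-3p and miR-365-3p, which share the chromosome 11 locus, gave r of 0.01 (permutation p = 0.956, adjusted p = 0.956) and rho of 0.02 (permutation p = 0.947, adjusted p = 0.947). Leaving out single libraries moved r between -0.24 and 0.31, and without HF 2 and LF 2 it was 0.35. miR-193b-3p and miR-365-3p of the chromosome 16 locus gave r of -0.19 (permutation p = 0.445, adjusted p = 0.653) and rho of -0.34 (permutation p = 0.172, adjusted p = 0.401). Without HF+CR 2 and LF 1 their r was -0.43.

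The members of the seed family, miR-193a-3p and miR-193b-3p, gave r of -0.15 (permutation p = 0.544, adjusted p = 0.653) and rho of -0.10 (permutation p = 0.681, adjusted p = 0.817), and r was -0.33 without HF 2 and LF 2. miR-193a-5p and miR-193b-3p gave r of -0.47 (permutation p = 0.0474, adjusted p = 0.284) and rho of -0.42 (permutation p = 0.0817, adjusted p = 0.401), and r was -0.35 without LF+CR 1 and LF+CR 3 and -0.23 on centred values (permutation p = 0.569). miR-193a-5p and miR-365-3p gave r of 0.22 (permutation p = 0.373, adjusted p = 0.653) and rho of 0.15 (permutation p = 0.556, adjusted p = 0.817), and r was 0.12 without LF+CR 1 and LF+CR 3.

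**Figure D5:**
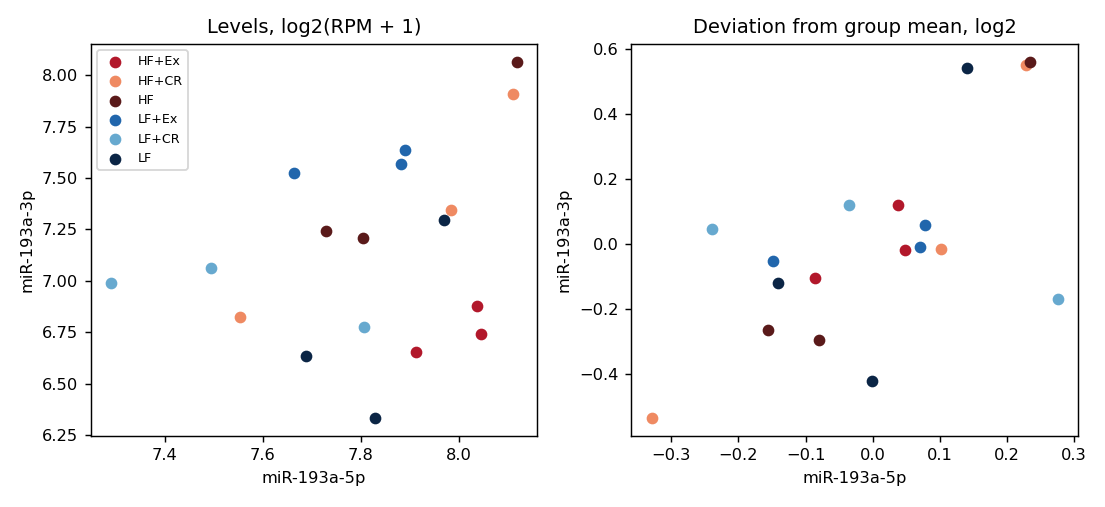
miR-193a-3p against miR-193a-5p in 18 libraries, as log2(RPM + 1) levels (left) and as deviations from the group mean (right), coloured by group. The HF+Ex points sit low for miR-193a-3p at high miR-193a-5p in the left panel, where r is 0.34, and the deviations in the right panel give r of 0.63.

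Likeness over the 18 libraries was ranked for each row among 344 other miRNAs, by Pearson's r of log2(RPM + 1) and as a description. Libraries share their depth and makeup, which enters each r. The miRNAs most like miR-193a-3p were miR-455-5p (r = 0.77), miR-219-5p (r = 0.77) and miR-29b-3p (r = 0.69), and its own partner arm stood at rank 47. For miR-193a-5p the first was miR-365-2-5p (r = 0.80), the 5p arm of the neighbouring hairpin on chromosome 11, followed by miR-194-2-3p (r = 0.73) and miR-455-3p (r = 0.68). miR-193b-3p was most like miR-183-5p (r = 0.81), miR-125a-5p (r = 0.75) and miR-182-5p (r = 0.75). miR-183-5p and miR-182-5p are made from a cluster used by sensory and epithelial cells. miR-365-3p was most like let-7d-3p (r = 0.69), miR-30c-5p (r = 0.68) and miR-192-3p (r = 0.66), with miR-365-2-5p at rank 48.

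Other miRNAs known from adipocyte differentiation and heat-producing fat, the setting in which miR-193b and miR-365 are best known, were counted from a list of 22. Of these 21 passed the filter, and miR-196a-5p did not. Members were not sorted by whether they promote or oppose differentiation, so counts of rises and falls give no direction for that process. In HF+CR against LF+CR 4 of 21 rose and 0 fell, where 9.12% and 1.42% of all miRNAs did so: miR-17-5p by 0.58, miR-27b-3p by 0.68, miR-328-3p by 1.04 and miR-455-3p by 1.07 on the log2 scale (limma adjusted p = 0.0421, 0.0170, 0.0459 and 0.0417). The list's median was 0.54, beside 0.38 for all miRNAs. These calls depended on the scaling: with rescaling by size factors none of the 4 passed (0.25, 0.35, 0.71 and 0.74), and 2 other members, miR-143-3p and miR-182-5p, were called lower. Over all 351 miRNAs the split was 32 higher and 5 lower as deposited and 6 higher and 19 lower rescaled.

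In LF+CR against LF 3 of 21 fell and 0 rose, where 5.7% and 0.57% of all miRNAs did so: miR-27b-3p at -0.64, miR-328-3p at -1.46 and miR-34a-5p, a p53 target, at -1.93 (limma adjusted p = 0.0172, 0.0164 and 0.0298). The list's median was -0.27, beside -0.32 for all miRNAs. With rescaling miR-328-3p and miR-34a-5p still passed and miR-27b-3p did not (-0.30), and miR-143-3p was called higher. Over all miRNAs the split was 2 higher and 20 lower as deposited and 8 higher and 7 lower rescaled. The same 3 fell in the average over both diets (6.27% of all miRNAs called lower), of which miR-34a-5p passed with rescaling, where the split over all miRNAs of 1 higher and 22 lower became 3 and 5. In HF+CR against HF 0 of 21 passed.

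For exercise 1 of 21 fell in HF+Ex against HF, against 0.855% of all miRNAs: miR-17-5p, a growth-linked miRNA of the miR-17-92 cluster, at -0.90 (SE 0.17, limma adjusted p = 0.0235). Its exercise effect also differed between diets, at -1.12 (limma adjusted p = 0.0286), both also with rescaling, and 0 of 21 passed in LF+Ex against LF or in the exercise average. For diet under exercise, miR-155-5p rose by 2.17 and miR-17-5p fell by 0.84 in HF+Ex against LF+Ex (limma adjusted p = 0.0264 and 0.0127), where 5.98% and 2.28% of all miRNAs were called higher and lower. In the diet average 4 rose (miR-155-5p, miR-27b-3p, miR-32-5p and miR-34a-5p) and miR-182-5p fell, where 16% and 2.56% of all miRNAs did so. With rescaling the calls of miR-17-5p and miR-155-5p held in HF+Ex against LF+Ex. In the diet average those of miR-155-5p and miR-182-5p held, those of miR-27b-3p, miR-32-5p and miR-34a-5p did not, and miR-143-3p was called lower. Over all miRNAs the split in HF+Ex against LF+Ex was 21 higher and 8 lower as deposited and 9 and 12 rescaled, and in the diet average 56 and 9 as deposited and 28 and 23 rescaled. In HF against LF and in the CR effect difference 0 of 21 passed. The list shares miR-155-5p with the leukocyte markers, miR-182-5p with the epithelial ones, miR-133a-3p with the muscle ones and miR-143-3p with the stellate ones.

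Markers of other cells were read beside the miR-193a-3p pattern. The 3 listed neuronal miRNAs summed to 136 to 145 RPM in HF+Ex, against 98.1 to 115 RPM in HF. Their sums were 88.1 to 109 RPM in LF+Ex, against 139 to 206 RPM in LF, so they moved opposite to miR-193a-3p on each diet. Over all 351 miRNAs 9.69% had HF+Ex wholly above HF and 15.1% had LF+Ex wholly below LF. The 7 epithelial and biliary miRNAs summed to 1094 to 1402 RPM in HF+Ex, against 1537 to 1712 RPM in HF. On the low-fat diet the sums were 1082 to 3919 RPM in LF+Ex, against 1132 to 6367 RPM in LF. The 2 endothelial miRNAs summed to 19096 to 20813 RPM in HF+Ex, against 16629 to 18423 RPM in HF. Their LF+Ex sums were 15894 to 17683 RPM, against 13441 to 19333 RPM in LF. The hepatocyte-enriched miR-148a-3p fell by 1.02 on the log2 scale in HF+Ex against HF (limma adjusted p = 0.0429), and its exercise effect differed between diets by -2.04 (limma adjusted p = 0.00212), the same direction as miR-193a-3p. It was the only 1 of the 5 hepatocyte miRNAs called in either comparison. In each, 3 of the 5 lay below 0, with list medians of -0.095 and -0.20. The 5 hepatocyte miRNAs together summed to 334583 to 361913 RPM in HF+Ex and 315059 to 352058 RPM in HF, which overlap. No listed marker of these lists was at 0 in a group, and their part in the miR-193a-3p values was not tested.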

How the data were processed

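Liver RNA was extracted with Trizol and enriched for small RNA, per the labels' protocols. The deposited values are RPM per mature miRNA, per the file headers, and the per-sample and series tables held the same values. The submitters' processing notes name mm10. The aligner, the counting tool and any rule for reads matching more than 1 miRNA were not given in the sources used here. Groups and replicate numbers came from sample titles. Each library's values were whole multiples (100%, tolerance 0.001 reads) of a step taken as 1 read.

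Tests used limma 3.58.1 in R 4.3.3 on log2(RPM + 1), a scale that understates changes of low miRNAs. The 351 miRNAs with at least 5 RPM in at least 3 of 18 libraries were fitted with 1 coefficient per group and an intensity trend, two-sided, and Benjamini-Hochberg adjusted over all 351; the other 407 were not tested. Calls required an adjusted p under 0.05. The 12 comparisons were high-fat against low-fat within each regimen and averaged, each intervention against the diet alone, per diet and averaged, and the difference of each effect between diets. Alternatives were rescaling by median-of-ratios size factors, a pseudocount of 5, no filter or a filter of 50 RPM, no trend, only the compared groups, the replicate number as a block, leaving out each library, and, added after seeing the data, voom weights and leaving out sets of libraries. Scripts were tested on simulated data.

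Correlations used 100000 permutations in Python 3.11.15 (scipy 1.17.1). The rows, lists and rules were chosen with earlier results of these data known. Named miRNAs were the 4 rows, the other arms of their hairpins, the 3 miRNAs most like each row and list members past the test. Markers miR-126, miR-142 and miR-486 were read under the older names of the table. The adipocyte list under rescaling was added after seeing the data. Sequences are from RefSeq and overlaps from GENCODE.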

Additional observations from a re-analysis of the deposited data

Results flagged for a closer look

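miR-193a-3p stood out because its exercise effects, as group differences, had opposite signs on the diets and the compared groups did not overlap. All 3 HF+Ex libraries lay below all 3 HF libraries, and all 3 LF+Ex libraries lay above all 3 LF libraries. Of all 351 miRNAs 8.26% had HF+Ex wholly below HF and 6.27% had LF+Ex wholly above LF. The share with both together was not counted. The difference between the effects (HF minus LF) was -1.57 on the log2 scale (SE 0.41), and limma's test of that difference missed the threshold (adjusted p = 0.0883); 16.5% of all miRNAs had an unadjusted p under 0.05 there. It crossed the threshold in 3 of 24 alternatives, over a range of adjusted p of 0.0395 to 0.193. No formal outlier test of the rows' levels was run, since each group holds 3 libraries.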

How the results depend on the processing

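In limma's fit no row of the 4 was called in any comparison, and the count stayed at 0 under every alternative run for HF against LF, LF+CR against LF, HF+CR against HF, LF+Ex against LF, HF+Ex against HF, the CR and Ex averages and the CR effect difference. It was 1 with RPM rescaled by size factors in HF+CR against LF+CR (miR-193b-3p at -1.08), the diet average (miR-193b-3p at -0.64) and the Ex effect difference (miR-193a-3p at -1.73). It was 1 with only the compared groups in HF+Ex against LF+Ex (miR-193a-3p at -0.82, adjusted p = 0.0193) and the Ex effect difference. Without LF 1 and HF+CR 3 together, chosen after seeing the data, it was 1 in HF+CR against LF+CR and 1 in HF+Ex against LF+Ex (adjusted p = 0.0368). LF 1 is in none of these groups, and HF+CR 3 is in neither exercised group. Leaving out single libraries gave 0 to 1 in the Ex effect difference, with 1 only without LF 3 (miR-193a-3p at -1.84), and 0 elsewhere. Signs turned for miR-193a-5p in LF+Ex against LF with rescaling (0.16) and without LF 3 (0.054) or LF+Ex 3 (0.058), over a range of -0.087 to 0.058 without single libraries. They also turned with rescaling in its Ex effect difference (-0.034) and in LF+CR against LF (0.038). The correlation of miR-193a-3p with miR-365-3p ranged between -0.24 and 0.31 without 1 library. The cause was not tested for any of these.

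Over alternatives the Ex effect difference of miR-193a-3p lay between -1.84 and -1.29. Calls over all 351 miRNAs moved by more than 1.5 times with the setting: 3 to 52 for HF+CR against LF+CR (main 37), 2 to 80 for HF+Ex against LF+Ex (29), 6 to 91 for the diet average (65), 0 to 55 for LF+CR against LF (22), 0 to 78 for the CR average (23), 0 to 25 for HF+CR against HF (0), 0 to 7 for HF against LF (1), 0 to 5 for HF+Ex against HF (3), 0 to 2 for LF+Ex against LF (0), 1 to 17 for the CR effect difference (3) and 2 to 12 for the Ex effect difference (3). Same-numbered libraries of different groups did not deviate together in the median (median r of 0.0186 over 45 pairs, 0.00655 over 90 others). Single same-numbered pairs ran from -0.42 to 0.61 and the others from -0.74 to 0.66, and whether some libraries shared a batch was not tested. With the replicate block 0 rows were called, and the Ex effect difference of miR-193a-3p had a limma adjusted p of 0.114. Over all miRNAs the block gave 48 calls in HF+CR against LF+CR (main 37) and 36 in HF+Ex against LF+Ex (29). In the diet average it gave 55 (65). A planned edgeR test on reads implied by the RPM steps was not run, because the step is not the smallest listed value and the reads could not be checked; voom weights on them, added after seeing the data, stood in. The 50 RPM filter removes miR-193b-3p and miR-365-2-5p and gives them no value. Among the rows and arms that were tested, depth limits miR-193b-3p and miR-365-2-5p most, at 30 to 226 and 11 to 84 reads.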
